A study of Mus musculus with 2 samples.

Results

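The genes described here are 9 chemokines and cytokines that are usually named as products of microglia: the chemokines Ccl2, Ccl3, Ccl4, Ccl12 and Cxcl2 and the cytokines Il1a, Il1b, Tnf and Osm. They were taken by symbol from the gene table, and all 9 of 9 were found among its 33696 genes in each library. The study profiled the brain of Shank3-/- mice, from which prefrontal cortex was dissected according to the series' design text. The mice carried the deletion in both groups, so neither group shows the effect of the deletion itself. One group received vehicle (labelled MOCK) and the other fluconazole, an azole antifungal drug, in the drinking water for 2 weeks. Each treatment is represented by 1 droplet library, and the labels used here give neither the number, age or sex of the mice nor the deleted part of Shank3. The design text speaks of cells and nuclei combined and the extraction text of nuclei, so the units are called barcodes below. With 1 library per treatment no difference has a replicate check and no test was made. The intervals are exact 95% intervals that cover counting error only, and they are too narrow where the UMIs (unique molecular identifiers, 1 per captured transcript) of a gene lie in few barcodes.

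Microglia are the resident macrophages of the brain. When pattern recognition receptors or purine receptors are engaged, NF-kappaB and AP-1 factors switch on a shared early set of chemokine and cytokine genes, which are short-lived as transcripts and whose products act on nearby cells. Chemokines draw in leukocytes: Ccl2 and Ccl12 through the receptor Ccr2, Ccl3 through Ccr1, and Cxcl2 through Cxcr2 on neutrophils. Of the cytokines, Il1a and Il1b share the interleukin 1 receptor, Tnf acts through its own pair of receptors, and Osm (oncostatin M) belongs to the interleukin 6 family. Microglia that are dissociated or otherwise handled before lysis are known to switch on the same genes.

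The genes lie in a few clusters of the mouse genome (GRCm38, GENCODE annotation). Ccl2 (chr11:82035571-82037453) and Ccl12 (chr11:82101845-82103400) lie in the same gene cluster on the plus strand, with Ccl7 and Ccl11 between them. Ccl3 (chr11:83647844-83649355, minus strand) and Ccl4 (chr11:83662584-83664683, plus strand) are neighbours. Osm lies elsewhere on the same chromosome (chr11:4236420-4241026, plus strand). Il1a (chr2:129299610-129309972) and Il1b (chr2:129364570-129371139) are neighbours on the minus strand, Tnf lies at chr17:35199381-35202007 (minus strand) and Cxcl2 at chr5:90903871-90905938 (plus strand). These are whole gene spans with exons, introns and untranslated ends. No run of 31 bases in a transcript of the other 8 genes occurred in a transcript of another gene of the table. Of the 2121 such runs in Cxcl2, 161 (7.59%) also occurred in Cxcl3, so reads from those stretches could not be told apart.

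Promoter sequences were available for 6 of the 9 genes (RefSeq, GRCm38.p6). The 250 bases before the start are shown for 3 genes whose cell source differed most in the results: Cxcl2 (chr5:90903649-90903898, plus strand), Il1a (chr2:129309973-129310222, minus strand) and Il1b (chr2:129371140-129371389, minus strand). Each is written 5′ to 3′ on the strand of the gene, and capitals mark the motifs found.
Cxcl2: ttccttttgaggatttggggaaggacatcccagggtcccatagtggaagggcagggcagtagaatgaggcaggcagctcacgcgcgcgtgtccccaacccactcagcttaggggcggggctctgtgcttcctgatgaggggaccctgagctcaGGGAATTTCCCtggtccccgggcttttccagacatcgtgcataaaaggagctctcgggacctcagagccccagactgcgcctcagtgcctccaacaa
Il1a: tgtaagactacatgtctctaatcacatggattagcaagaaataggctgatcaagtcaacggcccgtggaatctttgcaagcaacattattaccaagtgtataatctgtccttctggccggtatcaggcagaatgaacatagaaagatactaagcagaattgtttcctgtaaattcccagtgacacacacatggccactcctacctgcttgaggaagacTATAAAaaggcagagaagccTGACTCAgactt
Il1b: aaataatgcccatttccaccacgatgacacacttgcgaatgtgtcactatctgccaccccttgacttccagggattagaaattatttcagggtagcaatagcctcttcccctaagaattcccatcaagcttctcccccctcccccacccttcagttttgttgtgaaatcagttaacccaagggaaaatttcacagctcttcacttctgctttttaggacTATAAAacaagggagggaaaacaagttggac

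The capitals in Cxcl2 are a match to the NF-kappaB consensus, which is read on both strands in overlapping positions 97 and 96 bases before the start. In Il1a they are the letters TATAAA, 32 bases before the start, and the AP-1 letters TGANTCA, 12 bases before it. In Il1b only TATAAA was found, 31 bases before the start. Over both strands of the same window, the NF-kappaB consensus occurred in 1 of the 6 promoters and in 7.25% of 32841 promoters in the table. The AP-1 letters occurred in 1 of the 6 and in 6.75% of all, and TATAAA in 4 of the 6 (Ccl12, Il1a, Il1b and Tnf) and in 12.4% of all. The C/EBP letters TTGCNNAA, which 9.57% of all promoters hold, were in none of the 6. A match is a description of letters and not a binding site, and the absence of one says only that those letters are not in this window.

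In the vehicle library 76891692 UMIs were spread over 14924 barcodes, and 78380009 UMIs over 12637 barcodes in the fluconazole library. After removal of low-quality barcodes and called doublets (574 and 514), 12929 and 10614 barcodes were kept, with a median of 4332 and 5259 UMIs. The libraries shared 45 barcode sequences. Shank3 was still counted in glutamatergic neurons at 71.0 and 79.0 UMIs per 1000000 UMIs of the class (CPM), and a 3′ tag outside the deleted part would not check the labels. Clustering was done without the 9 genes, and 30 of 37 clusters were named from marker genes. Microglia-like barcodes (microglia below) numbered 3140 (24.3%) and 2389 (22.5%), with a median of 4604 and 6015 UMIs. All 8 of 8 microglial markers were counted in them, summing to 14110 and 13566 CPM, against 24.1 and 24.4 CPM for the 8 border macrophage markers.

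Transcripts of the 9 genes summed to 7276 CPM in vehicle microglia and 7363 CPM in fluconazole microglia. Ccl4 was the most abundant, with 3598 CPM (3568 to 3628) among vehicle barcodes and 3461 CPM (3431 to 3491) among fluconazole barcodes. Ccl3 followed with 1840.5 and 1979 CPM. Its gene is the neighbour of Ccl4. Ccl2 had 415 and 523 CPM, and Ccl12, which binds the same receptor as Ccl2, had 396 and 379 CPM. The chemokine Cxcl2 had 19.3 and 8.08 CPM, the lowest level of the 9.

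Of the cytokines, Il1a had 720 and 727 CPM and Tnf 146 and 162 CPM. Il1b had 75.6 and 67.3 CPM, and Osm 65.5 and 57.2 CPM. The level of Il1a was thus far above that of Il1b, although both products bind the same receptor. Scaled by exon length, the order in both libraries was Ccl4, Ccl3, Ccl12, Ccl2, Il1a, Tnf, Il1b, Osm and Cxcl2, from 5451 and 5244 CPM per kilobase for Ccl4 to 9.34 and 3.91 for Cxcl2. Ccl2 and Il1a could not be ranked in the vehicle library, where both had 365 CPM per kilobase. The library tags the 3′ end of transcripts, so the levels count tags and not covered length.

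**Figure D1:**
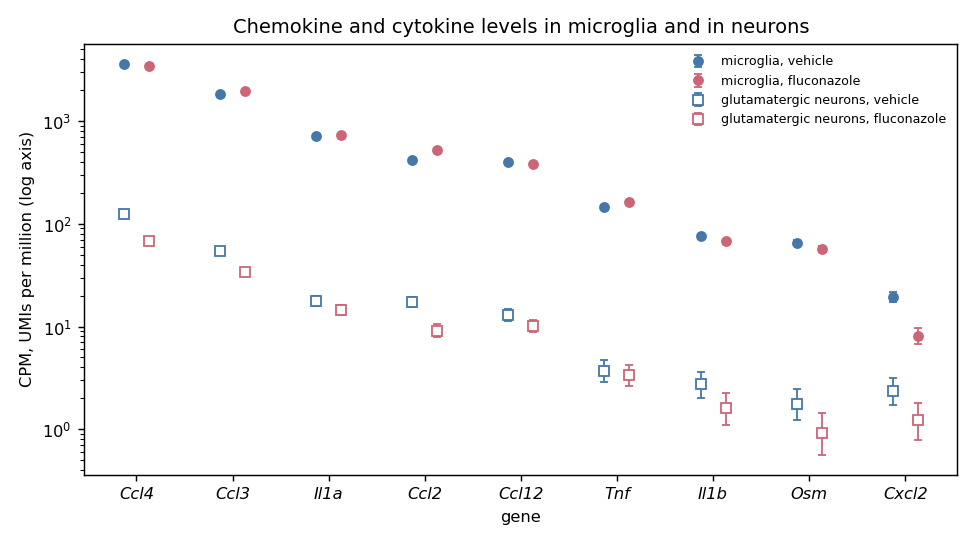
Level of each gene in microglia (filled circles) and in glutamatergic neurons (open squares) of the vehicle and fluconazole libraries, in CPM on a log axis, with exact Poisson intervals for counting error. Every gene lay higher in microglia than in neurons, from 3598 against 124 CPM for Ccl4 to 19.3 against 2.36 CPM for Cxcl2 in the vehicle library.

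Droplet libraries hold free RNA, which gives UMIs to cells that do not express a gene. Glutamatergic neurons, which should lack these genes, summed to 237 CPM in the vehicle library and 143 CPM in the fluconazole one. The neurons thus held less of these transcripts in the fluconazole library (log2 ratio of levels -0.73), while the microglia did not. The complement genes C1qa, C1qb and C1qc, abundant in microglia and in border macrophages, served as a second scale. Per UMI of them, the summed members in neurons were at 1.02 times the microglial ratio in the vehicle library and 0.76 times in the fluconazole one. Cxcl2 stood apart, at 3.83 and 5.93 times the microglial ratio in neurons.

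The share of a gene's UMIs that lay in microglia separated the genes. Il1a was the most microglial, with 90.6% and 92.7% of its UMIs in that class. Ccl4 had 86.8% and 91.3% there, Ccl3 84.1% and 87.6%, Osm 82.9% and 85.8%, Tnf 79.4% and 82.3%, and Ccl12 77.0% and 74.0%. Ccl2 had 62.6% and 66.2% in microglia and a further 27.1% and 28.6% in border macrophages, the macrophages of the meninges and perivascular spaces. Il1b had 52.3% and 67.1% in microglia and 39.5% and 23.4% in blood myeloid-like cells. Over the 9 genes together, microglia held 81.7% of the UMIs in the vehicle library and 85.8% in the fluconazole one.

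Cxcl2 went against the name of the group. Only 9.97% and 9.27% of its UMIs lay in microglia. Border macrophages held 42.8% and 65.6%, blood myeloid-like cells 39.4% and 13.9%, and endothelial cells 4.76% and 7.18%. Cxcl2 draws in neutrophils, and it was most abundant in the 2 rarest of these classes.

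**Figure D2:**
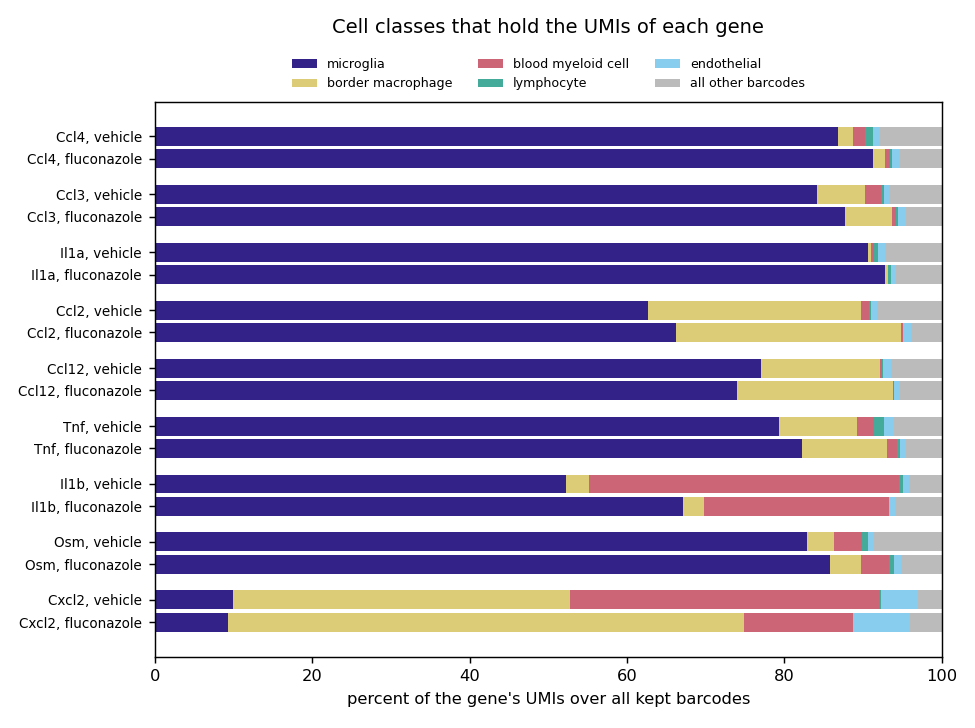
Percent of the UMIs of each gene, over all kept barcodes, that lay in microglia, border macrophages, blood myeloid-like cells, lymphocytes, endothelial cells and all other barcodes, with 1 bar per gene and library. Microglia filled most of the bar for 8 genes, while for Cxcl2 they held 9.97% and 9.27%.

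Border macrophages (156 vehicle and 124 fluconazole barcodes) carried a different mix from microglia. Ccl2 reached 3698 CPM (3560 to 3839) and 4476 CPM (4326 to 4630.0), against 415 and 523 CPM in microglia. Ccl12 reached 1609 and 2005 CPM, Cxcl2 1705 and 1131 CPM and Tnf 376 and 417 CPM, all above their microglial levels in both libraries. Ccl3, at 2739 and 2695 CPM, was also above its microglial level, while Ccl4 was below it at 1679 and 1079 CPM. Scaled by exon length, Ccl3 stood above Ccl4 in border macrophages (3576 against 2545 CPM per kilobase in the vehicle library and 3518 against 1635 in the fluconazole one), the reverse of their order in microglia.

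Il1a was far lower in border macrophages than in microglia, at 69.2 and 62.6 CPM. At 1500 UMIs per barcode, 6.90% (3.36 to 12.3) of 145 and 3.42% (0.94 to 8.52) of 117 border macrophage barcodes had an Il1a UMI (11 and 7 shallower ones were left out), against 48.4% and 49.0% of microglial barcodes. The glutamatergic background was 2.39% and 1.84% at the same depth. Per complement UMI, Il1a in border macrophages was at 0.10 and 0.08 times the microglial ratio, and Ccl2 at 9.20 and 7.85 times. Border macrophages held 13176 and 13190 CPM of the complement genes, against 13604 and 12097 CPM in microglia. In this class the ratio thus says nothing about free RNA. Without thinning, 16.0% and 16.1% of border macrophage barcodes had an Il1a UMI, at median depths of 4433 and 5845.5 UMIs, against 9.90% and 11.3% of neurons at 7841 and 11117 UMIs. The interval of the fluconazole share at 1500 UMIs includes the neuronal share, and that of the vehicle share leaves it out. In CPM, Il1a in border macrophages was above the 17.6 and 14.6 CPM of neurons in the vehicle and fluconazole libraries. Whether these UMIs are background was not tested.

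The blood myeloid-like cluster (99 vehicle and 42 fluconazole barcodes) was led by S100a8, S100a9 and Retnlg, which mark neutrophils, and by Chil3 and Plac8, which mark monocytes, so it mixes blood cell types. It was the class richest in Il1b, with 1550.1 and 1297 CPM, and Il1b had a UMI in 70.7% and 66.7% of its barcodes. Ccl4 had 1683 and 1379 CPM there, Ccl3 1215 and 647 CPM, and Cxcl2 2075 and 669 CPM. Ccl12 was close to missing, with 13 and 4 UMIs. Lymphocyte-like barcodes (151 and 58) held 1096 and 499 CPM of Ccl4, in 53 and 21 barcodes.

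Among the endothelial clusters, Cxcl2 was found mainly in the one led by Lrg1, Ackr1, Vwf and Il1r1, genes of venous endothelium. That cluster had 47.7 CPM in the vehicle library (27 of 251 barcodes with a UMI) and 29.3 CPM in the fluconazole library (18 of 246). The 3 other endothelial clusters had at most 6.53 CPM. Per complement UMI, endothelial Cxcl2 was at 38.2 and 69.5 times the microglial ratio, while the other 8 genes lay between 0.65 and 1.30 times. Venous Il1r1 encodes the receptor for the products of Il1a and Il1b.

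In microglia the 9 genes summed to nearly the same level in the fluconazole as in the vehicle library (log2 ratio of levels 0.02, 0.01 to 0.03). A log2 ratio past 0.5 in either direction, among genes with at least 20 UMIs, was called a difference in size. By that rule 1 of the 9 genes (Cxcl2, lower) was past the limit, against 12.8% of the 15557 genes measured in microglia. For differences in 1 direction the background was 5.2% higher, with 0 of the 9 genes, and 7.63% lower, with 1 of the 9. In all, 4 genes were higher and 5 lower with a median log2 ratio of -0.06, beside 7592 higher and 7965 lower with a median of -0.01 over all genes.

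Cxcl2 had 293 UMIs in vehicle and 120 UMIs in fluconazole microglia, a log2 ratio of -1.26 (-1.58 to -0.95), or 2.39-fold lower in the fluconazole library. It was lower in border macrophages (-0.59, -0.72 to -0.47), in blood myeloid-like cells (-1.63, -1.87 to -1.41) and in endothelial cells (-0.72, -1.11 to -0.33) as well. All 4 classes that held most of its UMIs thus had the lower level in the fluconazole library. Glutamatergic neurons, used above as background, had a lower level too (-0.95, -1.72 to -0.21, from 44 and 25 UMIs). The counts rest on few cells: 14 vehicle and 9 fluconazole microglial barcodes held 50% or more of the microglial Cxcl2 UMIs, and the border macrophage UMIs came from 64 and 40 barcodes. Border macrophage markers in microglia summed to 24.1 and 24.4 CPM, in which Mrc1 had 14.4 and 17.7 CPM (log2 ratio 0.29, 0.03 to 0.56) and Pf4 6.33 and 3.57 CPM (-0.83, -1.34 to -0.33, from 96 and 53 UMIs). Red blood cell markers summed to 938 CPM in the vehicle library and 467 CPM in the fluconazole one. The part of border macrophages, blood or free RNA in the Cxcl2 difference was not tested. With a stricter barcode filter the ratio was -1.89.

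Ccl2 was the gene with the highest ratio, 0.33 (0.29 to 0.38), or 1.26-fold, and its ratio in border macrophages was 0.28 (0.20 to 0.35). Tnf (0.14, 0.06 to 0.23) and Ccl3 (0.10, 0.08 to 0.13) were higher in fluconazole microglia as well, and Il1a (0.01, -0.02 to 0.05) lay within counting error. Lower levels within 0.5 were found for Ccl4 (-0.06, -0.07 to -0.04), Ccl12 (-0.06, -0.12 to -0.01), Il1b (-0.17, -0.29 to -0.04) and Osm (-0.20, -0.33 to -0.06). At 1500 UMIs per barcode Il1b came to 0.02 (-0.23 to 0.27) and Osm to -0.03 (-0.29 to 0.23), and the cause of the shift was not tested. As a mean over the 3 microglial clusters with equal weights, Il1b came to -0.92, Tnf to 0.00, Osm to 0.01, Il1a to -0.10 and Ccl3 to 0.05.

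The related chemokines did not keep the same order of ratios in the other macrophages. In border macrophages Ccl12 was higher in the fluconazole library (0.32, 0.21 to 0.43) and Ccl4 lower (-0.64, -0.77 to -0.51), while Ccl3 lay within counting error (-0.02, -0.11 to 0.07). The summed members were level there too (-0.01, -0.05 to 0.04). In blood myeloid-like cells the sum was lower (-0.66, -0.75 to -0.57), with 42 fluconazole barcodes behind it.

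**Figure D3:**
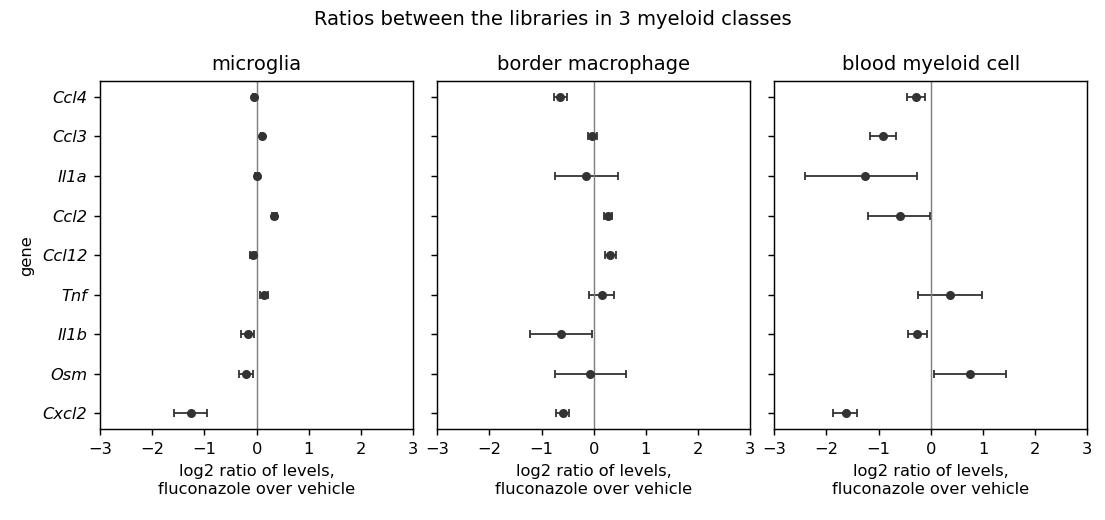
Log2 ratio of levels, fluconazole over vehicle, for each gene in microglia, border macrophages and blood myeloid-like cells, with exact intervals for counting error and only for genes with at least 20 UMIs in the class over the libraries. Cxcl2 lay left of 0 in each class, at -1.26, -0.59 and -1.63, and Ccl2 lay right of 0 in microglia (0.33) and border macrophages (0.28).

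Microglia fell into 3 clusters, which were found without the 9 genes. Only the 9 were left out, and Gm14023, a transcript that overlaps Il1a, was not. Gm14023 was among the leading genes of cluster 2, so the clusters are not fully independent of the 9 genes. Cluster 0 was led by Rgs1, Ptpro, Siglech, Tmem119 and P2ry13, the last 3 of which mark resting microglia, and summed to 4951 and 4981 CPM of the 9 genes. Cluster 2 was led by Ckap2l, Cxcl10, C5ar1, Egr3 and Cd83 and summed to 10401 and 9949 CPM. Cluster 30 was led by interferon response genes such as Mx1 and Ifit2 and summed to 10721 and 10630.0 CPM. Cluster 2 held 34.3% (32.7 to 36.0) of vehicle and 42.9% (40.9 to 44.9) of fluconazole microglia, and cluster 30 held 3.66% (115 barcodes) and 1.26% (30 barcodes). These shares depended on the clustering. With the 9 genes among the clustering genes, the cluster led by Cxcl10, Ckap2l and Egr3 held 43.6% and 50.1% of microglia, and no microglial cluster led by Mx1 and Ifit2 was found. With doublets kept, a cluster led by Neurl3, Cd83 and Gpr84 held 67.7% of vehicle and 81.5% of fluconazole microglia, and one led by Mx1 and Ifi204 held 109 and 24 barcodes. The levels by cluster given next are those of the clustering without the 9 genes and without doublets.

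The gain from cluster 0 to cluster 2 was shared by all 9 genes in both libraries. As a ratio it was small for Ccl12, from 280 to 441 CPM in the vehicle library and from 274 to 466 CPM in the fluconazole one. For Osm it was small in the vehicle library (52.1 to 82.5 CPM). In the fluconazole library Osm (39.8 to 75.1 CPM) rose about as much as Ccl3 (1426 to 2596 CPM). For Il1b the gain was larger, from 40.4 to 111 CPM and from 28.9 to 110 CPM. Ccl2 rose from 265 to 595 and from 285 to 778 CPM. In the interferon cluster Ccl12, which is known to be inducible by interferon, reached 1636 CPM (1536 to 1741) and 1490 CPM (1321 to 1674), above its intervals in cluster 2 in both libraries. Ccl2 was also higher there than in cluster 2, at 837 and 1004 CPM.

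Within the clusters, the ratio between the libraries differed by gene. Ccl2 had 0.10 (0.02 to 0.19) in cluster 0 and 0.39 (0.32 to 0.45) in cluster 2. Il1b had -0.49 (-0.73 to -0.24) in cluster 0, -0.01 (-0.16 to 0.15) in cluster 2 and -1.81 in cluster 30, the last from 147 and 13 UMIs. Cxcl2 was lower in clusters 0 (-1.14, -1.79 to -0.52) and 2 (-1.52, -1.90 to -1.16), and cluster 30 had too few UMIs (5 and 2). The summed members had 0.01 in cluster 0, -0.06 in cluster 2 and -0.01 in cluster 30.

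**Figure D4:**
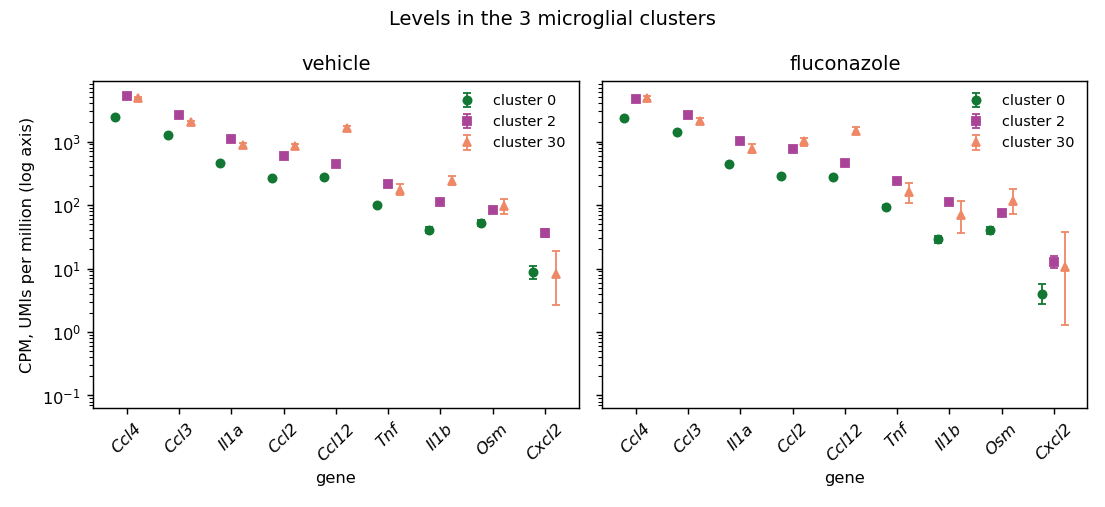
Level of each gene in microglial clusters 0, 2 and 30 of the vehicle (left) and fluconazole (right) library, in CPM on a log axis, with exact Poisson intervals for counting error. Cluster 2 lay above cluster 0 for every gene, and the interferon cluster 30 stood out for Ccl12, at 1636 and 1490 CPM.

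To ask how often the genes were found in the same barcode, barcodes were thinned to 1500 UMIs, which left out 30 vehicle and 25 fluconazole microglial barcodes and 5 neuronal barcodes in each library. At that depth 87.4% (86.1 to 88.5) of vehicle and 87.9% (86.5 to 89.1) of fluconazole microglial barcodes had a UMI of at least 1 of the 9 genes, against 19.8% and 15.5% of glutamatergic barcodes. Without thinning the shares were 95.3% and 97.2% of microglia and 64.7% and 65.4% of neurons. A set of 3 or more of the genes was found together in 45.8% (43.99 to 47.5) and 47.4% (45.4 to 49.5) of microglia, against 0.65% and 0.18% of neurons, and in 69.6% and 76.2% of microglia without thinning. The fluconazole share minus the vehicle share was 0.50 points (-1.26 to 2.26) for any gene and 1.66 points (-1.0 to 4.33) for 3 or more. The second difference came to 3.70 points (1.04 to 6.35) when called doublets were kept.

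The number of genes per barcode was spread more widely than the product of the single shares gives. No gene was found in 12.6% and 12.1% of microglia, where the product gives 3.92% and 3.52%. Barcodes with 5 or more made up 11.6% and 12.1%, where the product gives 4.01% and 4.62%. At 3 or more the observed shares and the products (45.9% and 48.5%) were close. A few barcodes had 8 genes (2 vehicle and 1 fluconazole), and 0 of 3110 and 0 of 2364 had all 9, which allows a share of up to 0.12% and 0.16%.

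**Figure D5:**
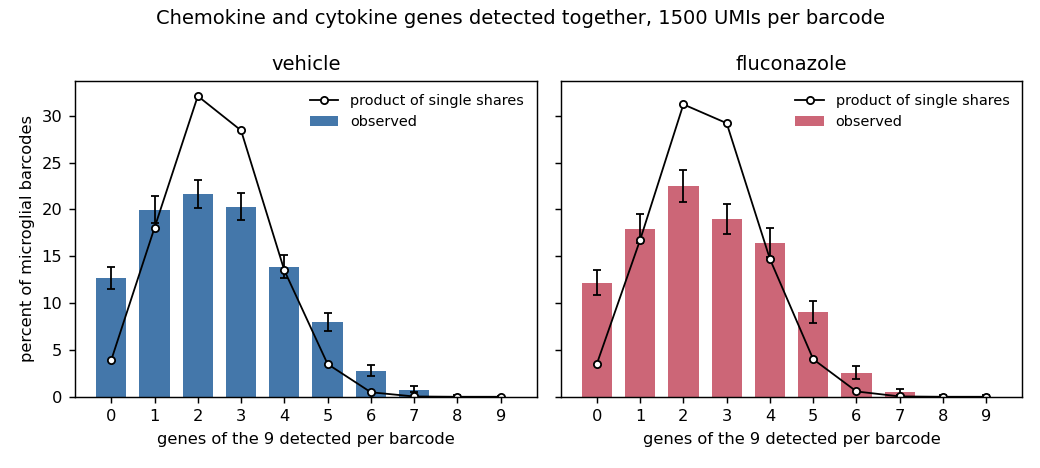
Percent of microglial barcodes by the number of the 9 genes detected, at 1500 UMIs per barcode, in the vehicle (left) and fluconazole (right) library, with exact Clopper-Pearson intervals on the bars and the product of the single shares as open circles. Bars rose above the circles at 0 genes (12.6% and 12.1%), at 1 gene and from 4 to 8 genes, and fell below them at 2 and 3.

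Of the 36 pairs, all 36 in the vehicle library and 35 in the fluconazole one were found together more often than the product of their shares, with a median of 1.30 and 1.27 times the product. The exception was Osm with Cxcl2 in the fluconazole library, with 1 barcode. Among pairs seen together in at least 20 barcodes, 31 of 31 and 27 of 27 lay above the product, and the interval left out 1 for 25 and 19 of them. The odds ratio has no upper limit set by how common a gene is. It was highest for the neighbours Ccl3 and Ccl4 in the vehicle library and second highest in the fluconazole library. The values were 6.04 and 5.29, with 1265 and 979 barcodes holding both. In the fluconazole library only Il1b with Cxcl2 was higher (7.53), from 5 barcodes. Ccl3 and Ccl4 also had the most UMIs per microglial barcode with a UMI, before thinning. The medians were 10 and 12 for Ccl3 and 13 and 16 for Ccl4, against 1 to 4 for the other genes. The part of these UMI numbers in the odds ratio was not tested.

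Ccl2 and Ccl12, of the same gene cluster, had an odds ratio of 2.39 and 2.33. The neighbours Il1a and Il1b had 3.22 and 1.92, against a median of 2.0 and 1.89 over all pairs. Pairs that are not neighbours reached such values too, as Ccl2 with Ccl4 (2.87 and 2.87) and Ccl4 with Il1b (2.78 and 3.13). Relative to the product, Ccl2 was found most often with Il1b (1.82, 1.44 to 2.27 in vehicle and 1.64, 1.25 to 2.11 in fluconazole microglia) and with Tnf (1.64 and 1.46). Osm with Tnf lay at 1.18 and 1.27, with intervals that include 1. Within cluster 0 the median over the pairs seen in at least 20 barcodes was 1.31 in each library, and within cluster 2 it was 1.18 and 1.11. All of those pairs lay above the product in both clusters. The limit of 20 is set on the barcodes holding both genes, so it tends to drop pairs with low values. Without that limit, 33 (vehicle) and 31 (fluconazole) of the 36 pairs lay above the product in cluster 0. In cluster 2 these counts were 36 and 32. Most pairs thus lay above the product inside the clusters too, but no intervals were made there.

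The UMIs of some genes lay in fewer microglia than those of others. The 314 vehicle and 239 fluconazole microglial barcodes with most UMIs of a gene held 41.2% and 39.5% of Il1a and 46.2% and 46.4% of Ccl4. They held 70.5% and 66.1% of Ccl2, 72.0% and 70.8% of Osm and 96.9% and 98.6% of Il1b. Such a share rises as the UMIs of a gene become fewer, so it compares only genes of like level. Il1b (1147 and 1000 UMIs) and Osm (994 and 850 UMIs) were close in level, and the share was higher for Il1b in both libraries. Il1b had a UMI in 349 and 253 microglial barcodes (11.1% and 10.6%), with up to 21 and 41 UMIs in a single barcode. Il1a, at a far higher level, was thus widespread and Il1b was detected in few microglia, in both libraries. Neurons had an Il1b UMI in 1.79% and 1.71% of barcodes.

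Genes that went with the 9 genes inside microglia were ranked by their level in barcodes with 3 or more of them over barcodes with none, at 1500 UMIs per barcode. Of 7481 genes ranked by the smaller ratio of the libraries, the first 10 were Egr3, Gm14023, Cxcl10, Myc, Myo1e, Id2, Ehd1, Ccl7, Smim3 and Ckap2l. Egr3, an early growth response factor, was at 8.60 and 14.8 times, from 892 against 29 and 858 against 15 UMIs. Cxcl10, an interferon-inducible chemokine, was at 10.7 and 5.35 times, and Ccl7, another ligand of Ccr2, at 10.1 and 4.30 times. The median gene was at 0.98 and 0.97 times. Within cluster 0 alone Egr3 was at 6.86 and 9.52 times, while Cxcl10 was at 4.12 times in the vehicle library and 0.68 times in the fluconazole one, the latter from 7 and 6 UMIs.

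The level of the NF-kappaB factors and feedback genes was higher in barcodes with 3 or more of the genes than in those with none for 14 of 15 measured genes in the vehicle library and 15 of 15 in the fluconazole one, with a median of 1.29 and 1.40 times. Over the 7481 ranked genes the median was 0.98 and 0.97 times. The share of all genes that were higher was not counted, so the counts by list have no such background. The inhibitor Nfkbia was at 1.35 and 1.40 times and the NF-kappaB subunit gene Nfkb1 at 1.47 and 1.35 times. Immediate early genes were mixed: 15 of 23 and 16 of 23 were higher, with Egr2 at 2.76 and 3.09 times and Fos at 0.85 and 0.95 times. Of the genes of resting microglia, 9 of 12 and 11 of 12 were lower, at a median of 0.91 and 0.94 times, with P2ry12, the purine receptor that marks resting microglia, at 0.87 and 0.95 times. Ccrl2, a receptor that holds chemokine without signalling, was at 2.63 and 2.04 times, and Csf1, a growth factor for macrophages, at 3.24 and 2.12 times. These counts compare barcodes of the same library and have no replicates.

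Over the 13 cell classes that reached 50 barcodes in both libraries (26 points, which share library and free RNA), the summed level of the 9 genes was most like Fcer1g, Tyrobp, C1qa, Aif1 and Plek, with a Pearson correlation of log2 levels between 0.98 and 0.99. These are genes of myeloid cells.

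The pathway around the genes was described between the libraries in microglia by the same rule. The background for each list is the 15557 genes measured in microglia, 7592 higher and 7965 lower, with 5.2% past 0.5 higher and 7.63% lower. Of the other chemokines, 12 of 27 were measured, 3 higher and 9 lower, with 0 past 0.5 higher and 2 past 0.5 lower and a median log2 ratio of -0.14. Among them Ccl7 had -0.42 (-0.61 to -0.23), Cxcl12, a chemokine of vessels and stroma, -0.38 (-0.63 to -0.13) and Pf4, a border macrophage marker, -0.83 (-1.34 to -0.33). Of the other cytokines 8 were higher and 7 lower (median 0.04), 1 past 0.5 higher and 4 lower. Csf1 had -0.51 (-0.60 to -0.41), Il33 -0.66 (-1.30 to -0.03), Ltb 0.75 (0.23 to 1.30), Il6 0.49 (0.01 to 0.98) and Tgfb1 0.15 (0.08 to 0.21). Il33, Ltb and Il6 rest on 94, 130 and 152 UMIs over the libraries.

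Of the receptors for the 9 products, 5 were higher and 7 lower (median -0.03), and 1 was past 0.5. Lifr, a receptor subunit for oncostatin M, had 0.32 (0.18 to 0.45), Tnfrsf1a 0.14 (0.03 to 0.26) and Il1rap, the accessory chain of the interleukin 1 receptor, -0.51 (-0.76 to -0.25). Of the decoys and antagonists, 2 were higher and 2 lower, with Ccrl2 at 0.16 (0.08 to 0.25).

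Sensing and processing genes were 6 higher and 7 lower (median -0.04), 1 of them past 0.5. Nlrp3, the inflammasome sensor for interleukin 1 release, had 0.21 (0.15 to 0.27), its adaptor Pycard -0.18 (-0.25 to -0.11) and the purine receptor P2rx7 0.11 (0.01 to 0.21). The endotoxin co-receptor Cd14 had 0.11 (0.05 to 0.17) and its partner Ly96 -0.19 (-0.36 to -0.02), while the fungal glucan receptor Clec7a had -0.78 (-1.17 to -0.39) from 152 and 87 UMIs. NF-kappaB factors and feedback genes were 13 higher and 3 lower, none of the 16 past 0.5, with a median of 0.04. Nfkbia had 0.19 (0.16 to 0.22), Nfkb2 0.17 (0.04 to 0.30), Rel 0.11 (0.07 to 0.14), Nfkbiz 0.09 (0.07 to 0.12) and Relb 0.09 (0.02 to 0.15).

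Genes of messenger RNA decay, which limit the life of chemokine and cytokine transcripts, were 4 higher and 4 lower (median 0.01). Zfp36l1 had -0.04 (-0.07 to -0.01) and Zfp36l2 -0.09 (-0.14 to -0.04). Immediate early genes were 18 higher and 6 lower (median 0.07), none past 0.5. Egr2 had 0.28 (0.20 to 0.37), Ier3 0.28 (0.24 to 0.32) and Fosl2 0.26 (0.08 to 0.44), and Atf3 had -0.15, Dusp1 -0.11 and Fos -0.10. Together the immediate early genes took 45033 and 45596 CPM of microglial UMIs.

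Lists that bear on the state of the cells moved between the libraries beside these values. All 12 of 12 heat shock genes were lower in the fluconazole library (median -0.21), 3 of them past 0.5: Hspa1b (-0.92), Hsph1 (-0.62) and Hspa1a (-0.54). Of all 15557 genes measured in microglia, 7965 were lower, and 7.63% were past 0.5 lower. The 3 complement genes used above were lower by a median of -0.18, so a ratio to them is raised in fluconazole microglia. Of the resting microglia genes 4 were higher and 8 lower (median -0.03), with Fcrls at 0.63 and Olfml3 at -0.28. Disease-associated genes were 5 higher and 8 lower (median -0.05), with Lpl at -0.88, Cd9 at 0.27 and Apoe at 0.14. Of the 7 nuclear-retained RNAs 3 were higher and 4 lower (median -0.23), with Malat1 at 0.04, Kcnq1ot1 at 0.40, Meg3 at -0.36 and Snhg11 at -0.33. Mitochondrial transcripts had a median of 1.18% and 1.24% per barcode. The part of handling, nuclear content or depth in the small ratios of the 9 genes was not tested.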

How the data were processed

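Brain tissue of Shank3-/- mice was profiled in 2 droplet libraries, 1 per treatment. The deposited matrices hold raw UMI counts per gene and barcode; the authors made them with Cell Ranger, given as 9.0.0 in the submitters' processing notes and as 8.0.1 per the file headers, on the mm10 build. Seurat 4.0.0 and R 4.0.3 are also named in the notes, but no deposited file shows their output. The strand setting and the handling of intronic reads are not given in the sources used here.

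Every barcode had at least 500 UMIs as deposited. Barcodes with under 500 genes, over 5% mitochondrial UMIs or a Scrublet doublet call were left out. The rest were scaled to 10000 UMIs, reduced to 30 components from 2000 variable genes per library and clustered at resolution 1 (scanpy 1.11.5, leidenalg 0.10.2, Python 3.11.15), without the 9 genes. A cluster was named from at least 3 markers. Marker scores decided between classes, and a cluster with a close second class stayed unnamed. The names are rebuilt here and may differ from those of the study.

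UMI counts were summed per class and library and given as CPM (per 1000000 UMIs) with exact Poisson intervals. Ratios have exact conditional binomial intervals and shares exact Clopper-Pearson intervals, all at 95%. PCR duplicates are collapsed by UMI, and the intervals cover counting error only. The ratio and its interval were tested on simulated Poisson counts. That is the model the interval assumes, so the simulation does not check spread between barcodes or libraries. Named genes were all 9 members and, of each other list, up to 3 genes with the highest and 3 with the lowest ratio among those with at least 50 UMIs and an interval without 0; the most similar genes were the first 10 within microglia and the first 5 over classes. One gene that the rule names is not reported here. The members and the lists were chosen with earlier results of these data known. Promoter letters come from RefSeq (GRCm38.p6), and gene spans from GENCODE on GRCm38. The alternatives were called doublets kept, a stricter filter (1000 genes, 2% mitochondrial), clustering with the 9 genes, median-of-ratios scaling, thinning to 1500 or 3000 UMIs, equal weight for each microglial cluster, no top barcode, and other count minimums.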

Additional observations from a re-analysis of the deposited data

How the results depend on the processing

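With 1 library per treatment, library, animal, batch and treatment cannot be told apart, and no alternative changes that. No paired analysis was possible because each treatment has 1 library. The summed ratio in microglia (0.02) came to -0.029 as an unweighted mean over the microglial clusters. The median ratio of the 9 genes (-0.06) came to 0.0042 at 1500 UMIs per barcode and to -0.070 as the unweighted mean. The share of the 9 genes' UMIs in microglia, 4.08 points higher in the fluconazole library, was 3.14 points higher with called doublets kept and 2.85 points higher with the stricter filter. The cause of each was not tested. Of 63 values for single genes over 7 alternatives, 53 stayed within counting error of the value reported and 10 moved further. Cxcl2, the only gene whose reported value was past 0.5, stayed negative under each of the 7. Il1b also passed 0.5 as the unweighted mean over the microglial clusters (-0.92). Depth limits Cxcl2 most, with 293 and 120 microglial UMIs, and cluster 30, with 30 fluconazole barcodes.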

Other observations

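Of the 10 genes that went most closely with the chemokines and cytokines inside microglia, 3 lie next to a member on the chromosome, which was noticed after the list was made. Gm14023, a noncoding transcript (chr2:129297370-129307826), overlaps Il1a on the opposite strand, and the strand setting of the counting is not given in the sources used here, so reads of the pair cannot be told apart. Ckap2l, which encodes a mitotic spindle protein (chr2:129268210-129297212), starts 2398 bases past the 3′ end of Il1a on the same strand. Ccl7 (chr11:82045712-82047525) lies 8259 bases from Ccl2 on the same strand.

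Among the 9 members, Ckap2l and Gm14023 had their highest value with Il1a in both libraries. At 1500 UMIs per barcode Ckap2l was 3.47 and 3.46 times as high in microglial barcodes with an Il1a UMI as in those without in the vehicle and fluconazole libraries. For Ccl4, the most common member, the same ratio was 2.05 and 1.80 times, for Ccl12 1.27 and 1.00 times and for Il1b, the other neighbour, 2.13 and 1.22 times. Gm14023 was 3.09 and 3.12 times as high with Il1a and 1.62 and 1.40 times as high with Il1b. Its values with members on other chromosomes were 1.45 and 2.87 times with Ccl4, 1.71 and 2.16 times with Ccl3, 1.24 and 2.06 times with Tnf and, in the vehicle library, 2.51 times with Cxcl2 (from 9 UMIs). Ccl7 was 7.82 and 10.1 times as high with Ccl2, and 2.93 and 2.23 times as high with Ccl12. In the vehicle library Ccl3, which lies elsewhere on the chromosome, gave a value as high for Ccl7 (8.04), but in the fluconazole library it gave 2.78. Neighbours of other members were not all like this: Aif1, 23313 bases from Tnf, was 1.00 times as high in vehicle barcodes with Tnf as in those without, and Ccl9, 69208 bases from Ccl3, 1.12 times. These values compare barcodes of the same library and have no replicates.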
